A study of Mus musculus with 9 samples.

Results

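Endothelial cells line blood vessels, and a laser capture of a ganglion or a gland also takes up the capillaries that run through it. The 10 genes described here are widely used markers of that lining: Cdh5, Pecam1, Kdr, Tek, Tie1, Robo4, Vwf, Flt1, Eng and Esam. They were taken as all probe sets of the array that are annotated to exactly 1 of these symbols, which gave 15 probe sets for the 10 genes, among 34945 probe sets with 1 symbol for 18193 genes in all. Total RNA of mouse cells captured by the submitters as neural crest cells or their derivatives was measured on 9 Affymetrix arrays, 1 per sample. The groups were E8.5 embryos at the time the neural tube closes, E13.5 dorsal root ganglia and adult adrenal medullae at P90 (3 months), with 3 arrays each. The labels call the arrays of a stage biological replicates and give no strain, genotype, treatment, sex or number of animals per capture, so animals may have been pooled. Stage and tissue change together, and their effects cannot be told apart in any comparison.

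The members have different roles in the vessel wall. Cdh5 (VE-cadherin), Pecam1 and Esam are adhesion molecules of endothelial cell junctions. Kdr and Flt1 are receptors for vascular endothelial growth factors, Kdr being the main signalling receptor and Flt1 largely a trap for the ligand. Tek (TIE2) is the receptor for angiopoietins, and Tie1 is its partner without a clear ligand of its own. Robo4 is a guidance receptor of the Roundabout family that steadies vessels, Eng is a co-receptor for ligands of the BMP and TGF-beta family, and Vwf is the clotting protein that endothelial cells and platelets store in granules. In the embryo vessels grow into the ganglia and the nerve tissue from outside, and the adult adrenal medulla is crossed by wide sinusoids.

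Promoters of the members show what they share in sequence. Of the 10 genes, 6 had a promoter in the RefSeq table (Kdr, Tek, Tie1, Robo4, Flt1 and Eng), and promoters of Cdh5, Pecam1, Vwf and Esam were not analysed here. The sequences below run from 250 bases before to 50 bases after the annotated start in GRCm38.p6, on the strand of the gene, and are shown for 2 members that passed the tests below and 1 that did not. Capitals mark AGGAAG or its reverse complement CTTCCT, letters that hold the GGAA core bound by ETS factors, which many endothelial genes depend on.
Robo4, chr9:37401722-37402021, plus strand: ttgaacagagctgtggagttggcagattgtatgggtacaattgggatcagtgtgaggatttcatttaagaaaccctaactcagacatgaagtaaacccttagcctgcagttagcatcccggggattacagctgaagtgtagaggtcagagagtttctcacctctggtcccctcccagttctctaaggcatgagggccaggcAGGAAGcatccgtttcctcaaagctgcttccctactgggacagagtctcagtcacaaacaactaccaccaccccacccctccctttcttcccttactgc
Eng, chr2:32646345-32646644, plus strand: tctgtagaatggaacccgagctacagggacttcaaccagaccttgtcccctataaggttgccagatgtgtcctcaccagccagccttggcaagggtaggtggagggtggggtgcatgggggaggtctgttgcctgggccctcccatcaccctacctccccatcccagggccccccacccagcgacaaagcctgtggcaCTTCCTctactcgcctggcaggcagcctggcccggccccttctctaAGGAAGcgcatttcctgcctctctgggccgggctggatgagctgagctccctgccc
Tie1, chr4:118489800-118490099, minus strand: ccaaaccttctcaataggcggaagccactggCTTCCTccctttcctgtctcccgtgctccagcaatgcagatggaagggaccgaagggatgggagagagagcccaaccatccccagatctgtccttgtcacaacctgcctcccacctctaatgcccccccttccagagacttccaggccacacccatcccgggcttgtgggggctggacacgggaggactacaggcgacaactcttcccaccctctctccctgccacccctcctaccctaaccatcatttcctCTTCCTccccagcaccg
AGGAAG, searched on both strands, was found once in the window of Robo4 and at 2 places each in those of Eng, Tie1 and Flt1. It was absent from the windows of Kdr and Tek. Thus 4 of 6 members held it, against 35.4% of all 32851 promoters of that length. The core GGAA, which lies within AGGAAG, was present in all 6 and in 96.0% of all promoters. The letters GATAA, part of the motif of GATA factors, were present in 1 of the 6, Tek, and in 25.4% of all promoters. These matches describe letters in a window and not bound sites, and members with and without a change between stages held AGGAAG.

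Signals are the deposited linear intensities, and changes are differences of log2(signal + 16), which understate changes of dim genes. The test took in a gene that was brighter than a signal of 26.1 (the 40th percentile over the table) on 3 or more of the 9 arrays, and a call is an adjusted p under 0.05 (limma, all 9 arrays, Benjamini-Hochberg over 13747 genes). The median signal of an array was 38.3 to 48.2. Between 2 arrays of 1 stage, r over the log2 signals was 0.874 to 0.985. P90 replicate 1 stood apart from the other P90 arrays (r = 0.925 and 0.917, against 0.979 between those), E8.5 replicate 1 from the other E8.5 arrays (r = 0.951 and 0.950, against 0.985), and E13.5 replicate 2 was the farthest from a partner (r = 0.874 with replicate 1). The labelled tissues carried their markers. Of 8 neural crest and neural tube markers, 6 fell at E13.5 against E8.5 and 8 at P90 against E8.5, where 7.22% and 12.5% of all genes fell. At E13.5 against E8.5, 4 of 5 sensory neuron markers rose, where 9.27% of all genes did. All 7 chromaffin markers rose at P90 against E8.5 and against E13.5, where 10.9% and 3.54% of all genes rose. The lists did not split the 2 later tissues cleanly. At E13.5 against E8.5, 3 of the 7 chromaffin markers rose too. Of the 5 sensory neuron markers, 1 rose at P90 against E8.5 and 1 fell at P90 against E13.5, where 5.94% of all genes fell. Wnt1 and Pax6 were above 26.1 only at E8.5, and Runx1 and Runx3 on no E8.5 array. These genes had to differ from E8.5 to be tested, and their calls are not support. The 6 chromaffin markers with no empty value summed to 12641 on P90 replicate 1, below 26701 and 25699 on P90 replicates 2 and 3.

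Of the 10 genes, 9 were tested, and Pecam1 was too dim. All 9 had a positive log2 change at E13.5 and at P90 against E8.5, but only some by more than the spread between arrays, and that of Tie1 at E13.5 (0.02) is negative with quantile normalization, with equal array medians and with 64 added in place of 16. At E13.5 against E8.5, 3 of the 9 rose (Cdh5, Robo4 and Vwf), 0 fell and 6 were not called, where 9.27% of all genes tested rose and 7.22% fell. At P90 against E8.5, 3 rose (Robo4, Vwf and Eng) and 0 fell, where 10.9% of all genes rose and 12.5% fell. At P90 against E13.5, 1 rose (Eng) and 0 fell, where 3.54% of all genes rose and 5.94% fell. At an unadjusted p under 0.05, 4, 4 and 2 of the 9 were higher in these 3 comparisons, where 15.2%, 17% and 8.5% of all genes were. Vwf passed the filter only through its E13.5 and P90 arrays, so it had to differ from E8.5, and its count is not support for the group. The same limit holds for genes named below that had no array of their dim stage above the filter signal. At E8.5 these are Vegfd, Procr, Icam2, Prox1, Rgs5, Abcc9, Kcnj8, C1qc and Fcgr3. At E13.5 they are Vegfd, Prox1 and Myb, and at P90 Slit1, Kit and Foxc2. The counts of the lists below also hold unnamed genes of this kind. The median log2 change of the 9 members was 0.71 at E13.5 against E8.5, against 0.02 for all genes. It was 1.30 at P90 against E8.5, against 0.00 for all genes, and 0.39 at P90 against E13.5, against -0.05. In RNA of captured tissue, more endothelial cells and more RNA of a gene per cell cannot be told apart. By probe set, of the 12 tested, 3 rose at E13.5 against E8.5, 4 at P90 against E8.5 and 1 at P90 against E13.5, where 7.99%, 9.57% and 2.88% of 24012 probe sets rose.

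**Figure D1:**
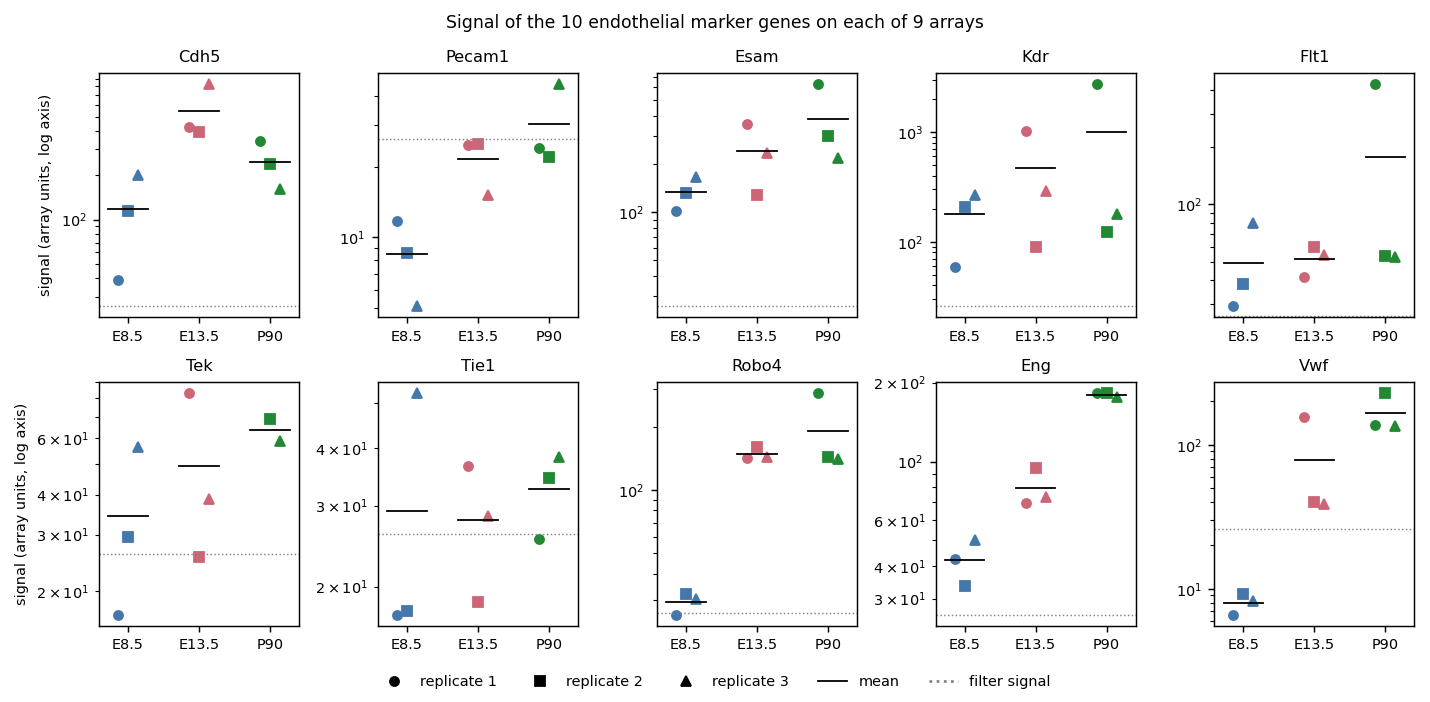
Signal (array units, log axis) of each of the 10 genes on 9 arrays, in order of stage; each marker is 1 array, its shape the replicate number, the bar the stage mean and the dotted line the filter signal of 26.1. Pecam1, Esam, Robo4, Eng and Vwf have every P90 array above every E8.5 array, while Kdr runs from 123 to 2728 within P90 alone.

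The junction gene Cdh5, whose cadherin holds endothelial cells together, was highest in the ganglion. Its brighter probe set, 1433956_at, read 39.1, 114 and 200 on E8.5 replicates 1 to 3, 424, 394 and 827 on the E13.5 arrays, and 340, 237 and 160 on the P90 arrays. Every E13.5 array lay above every E8.5 array and above every P90 array, and the P90 and E8.5 arrays overlapped. The signal averaged 548 ± 242 at E13.5 and 118 ± 80.4 at E8.5 (SD, n = 3 each; log2 change 2.21 ± 0.52 SE, 4.62-fold, limma adjusted p = 0.0124). The call was lost without E8.5 replicate 1 (log2 1.67, adjusted p = 0.0512), the dimmest array, or without E13.5 replicate 3 (log2 1.88, adjusted p = 0.0643), the brightest. P90 against E13.5 gave a log2 change of -1.09 with a 95% interval of -2.22 to 0.05 (adjusted p = 0.258), so the fall was not called although the arrays did not overlap. P90 against E8.5 gave 1.12 (interval -0.01 to 2.25, adjusted p = 0.144). The second Cdh5 probe set, 1422047_at, passed the filter signal on 1 of 9 arrays and showed no such pattern, with means of 17.1 ± 3.89, 17.8 ± 8.66 and 13.1 ± 5.38 at E8.5, E13.5 and P90 (SD, n = 3 each).

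Pecam1, an adhesion molecule of endothelial cells, platelets and leukocytes, stayed near the bottom of the range. It read 11.7, 8.61 and 5.12 on the E8.5 arrays, 24.7, 24.8 and 15.1 on the E13.5 arrays and 24.0, 22.0 and 44.7 on the P90 arrays. Only P90 replicate 3 passed the filter signal, yet every E13.5 and every P90 array lay above every E8.5 array. In a fit of probe sets without the filter its log2 change was 0.61 at E13.5 against E8.5 (adjusted p = 0.129), 0.89 at P90 against E8.5 (adjusted p = 0.0265) and 0.28 at P90 against E13.5 (adjusted p = 0.618). At such signals the added 16 takes up much of the sum, so these changes are compressed.

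Esam, an immunoglobulin adhesion molecule of tight junctions and platelets, read 102, 131 and 166 on the E8.5 arrays, 354, 129 and 235 on the E13.5 arrays, and 628, 299 and 218 on the P90 arrays. Every P90 array was above every E8.5 array, and E13.5 overlapped both. The means were 382 ± 217 at P90 and 133 ± 31.8 at E8.5 (SD, n = 3 each), a log2 change of 1.30 ± 0.46 that missed the threshold (interval 0.30 to 2.31, limma adjusted p = 0.0618). It was past the threshold with the Actb difference as a covariate (log2 1.28, adjusted p = 0.0102), with quantile normalization (1.24, 0.0249) and in a fit of these stages alone (adjusted p = 0.0447), and it was 0.89 (adjusted p = 0.157) without P90 replicate 1. E13.5 against E8.5 gave 0.70 (interval -0.31 to 1.71, adjusted p = 0.368).

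Of the catenins and other partners of VE-cadherin, the proteins that tie the junction to the actin skeleton, 6 of 6 genes were tested. At E13.5 against E8.5, 2 rose and 0 fell: Vezt, a transmembrane protein of cadherin junctions (log2 1.88 ± 0.51, adjusted p = 0.0263), and Jup, or plakoglobin (1.84 ± 0.39, adjusted p = 0.00722). Jup read 508, 367 and 582 on the E13.5 arrays, against 84.0, 139 and 152 on the E8.5 arrays, and it was also higher at P90 than at E8.5 (log2 1.62 ± 0.39, adjusted p = 0.0110). Vezt fell at P90 against E13.5 (log2 -2.30 ± 0.51, adjusted p = 0.0145), so 1 gene rose and 0 fell at P90 against E8.5, and 0 rose and 1 fell at P90 against E13.5. The median changes of the list were 0.22, -0.30 and -0.36 in these 3 comparisons. Both genes are also used by junctions of other cell types.

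The VEGF receptors varied widely between arrays of a stage. Kdr, the receptor that drives endothelial growth, read 59.0, 207 and 268 on the E8.5 arrays, 1022, 89.6 and 291 on the E13.5 arrays, and 2728, 123 and 179.6 on the P90 arrays. Replicate 1 held the highest value at both later stages, and the ranges of all stages overlapped. No comparison was called: the log2 change was 0.94 ± 1.08 at E13.5 against E8.5 (interval -1.43 to 3.31, limma adjusted p = 0.638) and 1.33 ± 1.08 at P90 against E8.5 (interval -1.05 to 3.70, adjusted p = 0.419). It was 0.38 ± 1.08 at P90 against E13.5 (adjusted p = 0.897). Without P90 replicate 1, the change at P90 against E8.5 was -0.03 (adjusted p = 0.987). These intervals run from a fall to a rise of several-fold, so a difference of Kdr between the tissues was not detectable with these arrays.

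Flt1 was measured by 4 probe sets, which did not move together. The brightest, 1451756_at, read 29.3, 38.0 and 80.1 on the E8.5 arrays, 41.5, 59.9 and 54.5 on the E13.5 arrays and 427, 53.3 and 53.1 on the P90 arrays. Replicate 1 thus set the P90 mean of 178 ± 216 (SD, n = 3). Its log2 change at P90 against E8.5 was 1.06 ± 0.61 (interval -0.27 to 2.39, limma adjusted p = 0.240), and 0.16 (adjusted p = 0.760) without that array. Probe set 1440926_at showed the same single high array, at 78.5, against 13.2 and 17.8 on P90 replicates 2 and 3. Probe set 1419300_at was empty on P90 replicate 1 and read 54.5 and 62.8 on the other P90 arrays, above all of its E13.5 and E8.5 arrays (log2 0.80 ± 0.34 against E8.5, adjusted p = 0.133 in the fit of probe sets). The last, 1454037_a_at, lay between 5.89 and 17.8 on all 9 arrays and under the filter signal on each. The array's annotation names a different source sequence for each of the 4 probe sets.

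**Figure D2:**
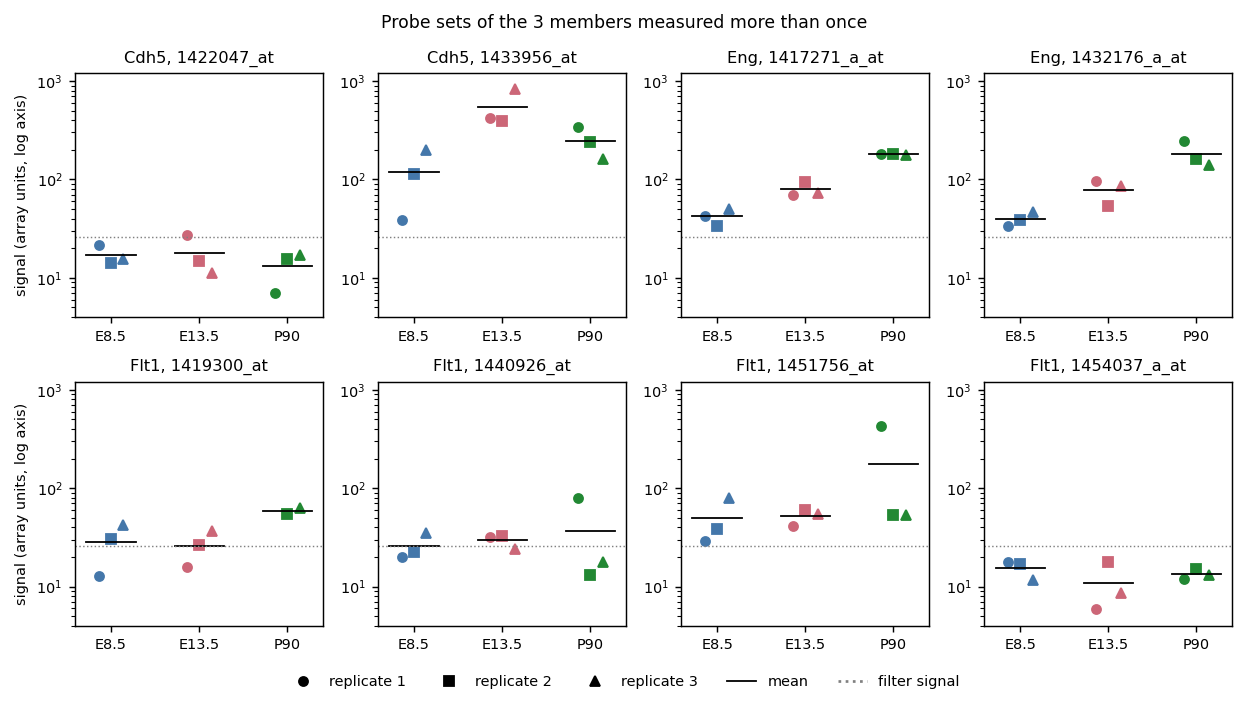
Signal (array units, log axis, 1 scale for all panels) of the 8 probe sets of Cdh5, Eng and Flt1 by stage; markers are arrays, bars stage means and the dotted line the filter signal of 26.1. The 2 Eng probe sets climb alike, 1 of the 2 Cdh5 probe sets is high at E13.5, and 2 of the 4 Flt1 probe sets are high on P90 replicate 1 alone.

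Of a list of VEGF and angiopoietin ligands, which also holds the angiopoietin-like gene Angptl4, 8 of 9 genes were tested. Not all of them are ligands of Kdr, Flt1 or Tek. Pgf (placental growth factor), a ligand of Flt1, read 116, 62.2 and 128 on the E13.5 arrays, against 48.0, 37.3 and 31.7 on the E8.5 arrays (log2 1.06 ± 0.28, adjusted p = 0.0218). At P90 it was 30.1, 32.6 and 25.6, lower than at E13.5 (log2 -1.33 ± 0.28, adjusted p = 0.0101). Vegfd, a ligand of the VEGF family, read 512, 192 and 92.2 on the P90 arrays. On the E8.5 arrays it read 6.06, 1.90 and 6.25 (P90 against E8.5, log2 3.47 ± 0.46, limma adjusted p = 0.000297). Vegfd was above the E13.5 arrays too (log2 3.07 ± 0.46, adjusted p = 0.00158), and it entered the test only through its P90 arrays, so it had to differ from both other stages. In the list 1 rose and 0 fell at E13.5 against E8.5, 1 rose and 0 fell at P90 against E8.5, and 1 rose and 1 fell at P90 against E13.5, with medians of 0.37, -0.03 and -0.04.

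The TIE receptors were dim and uncalled. Tek read 16.9, 29.5 and 56.2 on the E8.5 arrays, 83.2, 25.6 and 38.6 on the E13.5 arrays and 68.9 and 58.9 on P90 replicates 2 and 3, the value of replicate 1 being empty. Both measured P90 arrays were above every E8.5 array and within the range of E13.5. The log2 change was 0.74 ± 0.42 at P90 against E8.5 (interval -0.18 to 1.67, limma adjusted p = 0.233) and 0.35 ± 0.37 at E13.5 against E8.5 (adjusted p = 0.607).

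Tie1 read 17.4, 17.8 and 52.6 on the E8.5 arrays, 36.6, 18.5 and 28.5 on the E13.5 arrays and 25.3, 34.4 and 38.2 on the P90 arrays. The highest of all 9 values was an E8.5 array, and all stages overlapped. Its log2 change was 0.02 ± 0.30 at E13.5 against E8.5 (interval -0.64 to 0.69, limma adjusted p = 0.978), 0.18 ± 0.30 at P90 against E8.5 (interval -0.48 to 0.85, adjusted p = 0.720) and 0.16 ± 0.30 at P90 against E13.5 (interval -0.50 to 0.83, adjusted p = 0.834). Around signals this low the intervals bound its difference on the log2(signal + 16) scale to less than 1 either way.

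Robo4 was dim at neural tube closure and brighter in both later tissues. It read 25.6, 32.1 and 30.2 on the E8.5 arrays, 141, 161 and 143 on the E13.5 arrays, and 288, 143 and 140.4 on the P90 arrays. All E13.5 and P90 arrays were above all E8.5 arrays, and P90 overlapped E13.5. The mean was 148 ± 10.7 at E13.5 and 29.3 ± 3.36 at E8.5 (SD, n = 3 each; log2 change 1.86 ± 0.31, 3.63-fold, limma adjusted p = 0.00179). At P90 it was 191 ± 84.7 (SD, n = 3), a log2 change of 2.12 ± 0.31 against E8.5 (4.35-fold, limma adjusted p = 0.000557). P90 against E13.5 gave 0.26 ± 0.31 (interval -0.42 to 0.94, adjusted p = 0.711), and -0.06 without P90 replicate 1. Both calls against E8.5 were kept in all 23 other settings run.

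Of the 7 Roundabout and Slit pathway genes, 5 were tested, none was called at E13.5 against E8.5, and 0 rose and 2 fell at P90 against E8.5. These were Robo2, a neuronal guidance receptor (log2 -1.74 ± 0.51, adjusted p = 0.0294), and Slit1, a ligand of neural tissue (log2 -1.67 ± 0.35, adjusted p = 0.00494). Slit1 also fell at P90 against E13.5 (log2 -2.09 ± 0.35, adjusted p = 0.00286), the only call there, and Robo3 was under the filter signal on every array. Robo4 and Esam are near neighbours on chromosome 9, with 2 protein-coding genes, Robo3 and Msantd2, between them.

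Eng, the co-receptor whose loss causes hereditary vascular malformations in humans, was the member with a step at each stage. Probe set 1417271_a_at read 42.5, 33.5 and 50.2 on the E8.5 arrays, 69.4, 94.5 and 73.5 on the E13.5 arrays and 183, 182 and 176 on the P90 arrays. No stage overlapped another, and the P90 arrays lay within 0.05 of each other on the log2(signal + 16) scale. The means were 180.2 ± 3.74 at P90 and 42.1 ± 8.39 at E8.5 (SD, n = 3 each; log2 change 1.77 ± 0.25, 3.40-fold, limma adjusted p = 0.000519). P90 was also higher than E13.5, with a mean of 79.1 ± 13.5 there (log2 1.05 ± 0.25, 2.08-fold, limma adjusted p = 0.0224). E13.5 against E8.5 did not pass (log2 0.71 ± 0.25, interval 0.16 to 1.27, adjusted p = 0.0819), although the arrays separated. Leaving out E13.5 replicate 1 ended the call at P90 against E13.5 (adjusted p = 0.0678), as did leaving out E13.5 replicate 3 (0.108), P90 replicate 2 (0.0783) or P90 replicate 3 (0.0638). Without E13.5 replicate 2 the second probe set was the brighter one and stood for the gene, with no call (log2 0.84, adjusted p = 0.104), while 1417271_a_at kept its own in the fit of probe sets (log2 1.17, adjusted p = 0.0218). The call at P90 against E8.5 was kept in all 23 other settings. The second probe set, 1432176_a_at, read 246, 160.2 and 139 on the P90 arrays, against 33.2, 39.0 and 46.7 on the E8.5 arrays (log2 1.80 ± 0.31, adjusted p = 0.00204 in the fit of probe sets). It read 97.4, 53.0 and 86.0 at E13.5, and P90 against E13.5 was not called (log2 1.05 ± 0.31, adjusted p = 0.0649).

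Of 14 tested genes of the endoglin pathway (other receptors, ligands, SMADs and targets), none was called at E13.5 against E8.5. At P90 against E8.5, 1 rose and 1 fell: Tgfbr2, the type II TGF-beta receptor (log2 2.74 ± 0.79, adjusted p = 0.0269), and Id3, a target of BMP signalling (log2 -2.34 ± 0.63, adjusted p = 0.0188). Tgfbr2 read 2005, 275 and 172 on the P90 arrays, against 48.4, 49.0 and 72.5 on the E8.5 arrays, so P90 replicate 1 was again the high one. At P90 against E13.5 the only call was a fall of the ligand Tgfb2 (log2 -1.53 ± 0.31, adjusted p = 0.00909). The list's medians were 0.19, 0.10 and 0.02.

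Vwf, which carries clotting factor VIII and tethers platelets to a damaged wall, had the largest log2 change of the 9 tested members at P90 against E8.5. It read 6.62, 9.16 and 8.20 on the E8.5 arrays, 156, 40.2 and 38.7 on the E13.5 arrays and 138, 229 and 136 on the P90 arrays. All 3 E8.5 arrays lay under the filter signal, all later arrays lay above it, and P90 overlapped E13.5 through E13.5 replicate 1. The mean was 167 ± 53.1 at P90 and 7.99 ± 1.28 at E8.5 (SD, n = 3 each; log2 change 2.90 ± 0.41, 7.46-fold on the signal + 16 scale, limma adjusted p = 0.000452). E13.5 averaged 78.3 ± 67.4 (SD, n = 3), a log2 change of 1.75 ± 0.41 against E8.5 (3.37-fold, limma adjusted p = 0.0122). Both calls were kept in all 23 other settings of the fit of genes. With 64 added in place of 16, the call at E13.5 was near the threshold there (limma adjusted p = 0.0493). It was lost in the fit of probe sets. P90 against E13.5 was not called (log2 1.15 ± 0.41, interval 0.25 to 2.04, adjusted p = 0.118), but was without E13.5 replicate 1 (log2 1.69, adjusted p = 0.00411), where the change at E13.5 against E8.5 was 1.21 (adjusted p = 0.0157).

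Since platelets and their precursors also hold Vwf, Esam and Pecam1, their markers stand beside it. Pf4, a platelet chemokine also found in some macrophages, read 574, 276 and 496 on the E13.5 arrays, against 15.2, 18.3 and 93.3 on the E8.5 arrays (log2 3.19 ± 0.51, adjusted p = 0.00143). It read 368, 456 and 224 at P90 (log2 2.85 ± 0.51 against E8.5, adjusted p = 0.00197). Of 7 platelet and blood progenitor markers tested, 1 rose and 1 fell at E13.5 against E8.5, where Myb fell (log2 -1.44). At P90 against E8.5, 1 rose and 2 fell, Kit the most (-2.26), and at P90 against E13.5, 0 rose and 1 fell, Kit (-3.55). The platelet glycoproteins Gp6 and Gp9, and Cd48, were under the filter signal on all 9 arrays. The summed signal of the 9 genes of the list with no empty value was 404 to 567 at E8.5, 742 to 1394 at E13.5 and 520 to 782 at P90. The part of these cells in the Vwf result was not tested.

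**Figure D3:**
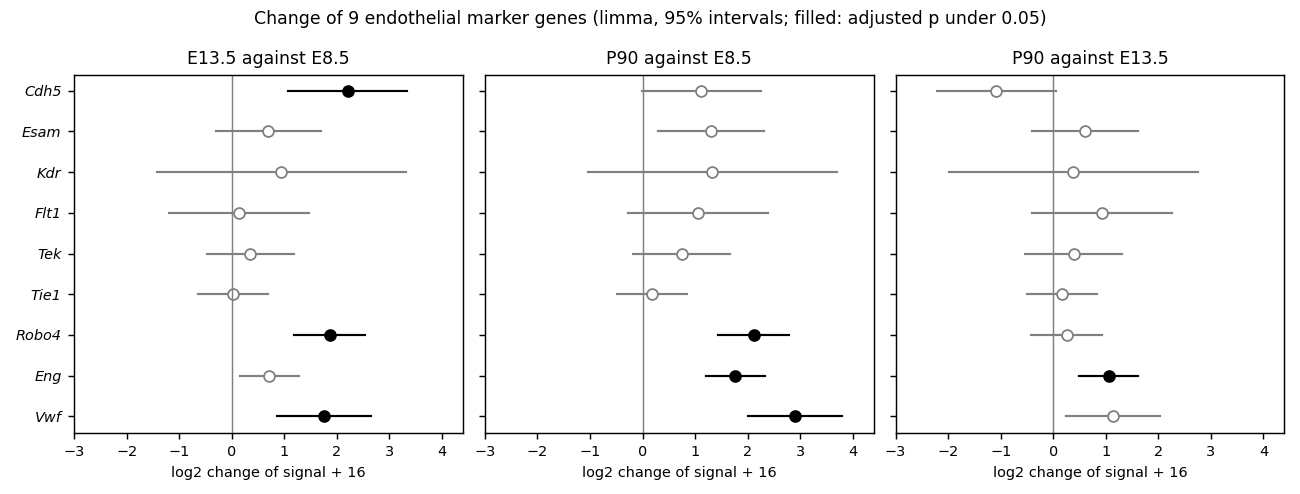
Log2 change of signal + 16 for the 9 tested members in the 3 comparisons; points are limma estimates, bars 95% intervals, and filled points have an adjusted p under 0.05. Cdh5, Robo4 and Vwf pass at E13.5 against E8.5, Robo4, Eng and Vwf at P90 against E8.5, and Eng at P90 against E13.5.

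Counted by arrays instead of tests, 4 of the 9 members (Cdh5, Eng, Robo4 and Vwf) had every E13.5 array above every E8.5 array, where 17.8% of all genes with 6 values did. For P90 against E8.5 it was 4 of 8 (Eng, Esam, Robo4 and Vwf), where 19.8% of all genes did. Vwf is in both counts although it passed the filter only through its E13.5 and P90 arrays, so it is not support there. For P90 against E13.5 it was 1 of 8 (Eng), where 9.03% did, and Cdh5 separated the other way. Tek, with 1 empty value at P90, is in the first of these counts only.

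Within a stage the members shared part of their order between arrays. E8.5 replicate 3 held the highest value of its stage for 7 of the 10 genes, and P90 replicate 1 for 6. At E13.5 replicate 1 was highest for 5 and replicate 2 for 4. The mean of the standardised log2 values of the 8 members with no empty value was -1.25, -0.90 and -0.23 on the E8.5 arrays, 0.49, -0.22 and 0.19 on the E13.5 arrays, and 1.25, 0.40 and 0.28 on the P90 arrays. In that mean every E13.5 and P90 array lay above every E8.5 array, E13.5 replicate 2 just above E8.5 replicate 3, and E13.5 replicate 1 lay above P90 replicates 2 and 3. Taking deviations from the stage means over the 9 arrays, Kdr and Esam varied together (r = 0.94), as did Flt1 and Robo4 (r = 0.95). Eng, taken from probe set 1417271_a_at only, and Vwf did not (r = -0.40). These are descriptions over 9 arrays, with no test, and how far all other genes share this order was not examined.

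The arrays also differed in the Actb control, whose 3' probe set exceeds its 5' probe set the more the RNA or its labelling has lost the 5' end. The excess is given here as a log2 difference. It was 4.82, 2.05 and 2.39 on the E8.5 arrays, 0.85, 7.0 and 2.87 on the E13.5 arrays, and 1.36, 4.09 and 3.51 on the P90 arrays. The arrays with the smallest difference at E13.5 and P90, both replicate 1, were the ones with the highest Kdr and Esam. Within stages the deviations of Kdr and Esam correlated with those of the Actb difference at r = -0.86 and -0.87 (9 arrays, as a description). Those of Eng, taken from probe set 1417271_a_at only, did so at r = 0.60. The other Eng probe set, 1432176_a_at, was not in that correlation. Like Kdr and Esam, it was highest on replicate 1 at both later stages (97.4 at E13.5 and 246 at P90). Its lowest value was on the array of largest Actb difference at E8.5 and E13.5, but not at P90. With the Actb difference as a covariate, an alternative added after the data were seen, the fit of genes made the same calls for Cdh5, Robo4, Vwf and Eng as without it. Kdr then had log2 changes of 1.28 at E13.5 against E8.5 (adjusted p = 0.154) and 1.26 at P90 against E8.5 (adjusted p = 0.129), still not called.

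**Figure D4:**
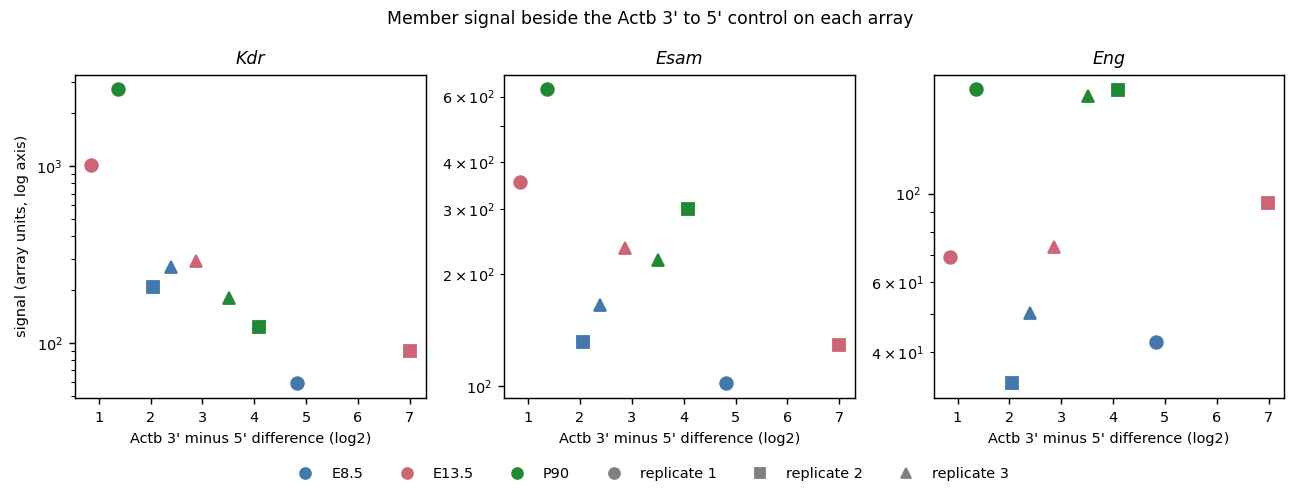
Signal (array units, log axis) of Kdr, Esam and Eng on each of 9 arrays against the log2 excess of the 3' over the 5' probe set of Actb on that array; colours are stages and shapes replicates. Kdr is highest on the arrays with differences of 0.85 and 1.36, and Eng (probe set 1417271_a_at) splits by stage at every difference.

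Several other genes of the endothelial surface and junction were called too. Of 28 tested, 5 rose and 0 fell at E13.5 against E8.5, 8 rose and 1 fell at P90 against E8.5, and 2 rose and 1 fell at P90 against E13.5, with median changes of 0.48, 0.53 and 0.21. Over all genes tested, 9.27%, 10.9% and 3.54% rose and 7.22%, 12.5% and 5.94% fell in these comparisons. These shares apply to the counts of every list given here, and a count near its share is not a result about the list. The counts also hold rises fixed by the filter. Icam2 and Procr rose against E8.5 at both later stages with every E8.5 array under the filter signal. Prox1 rose at P90 in both comparisons and passed the filter only through its P90 arrays. These rises are not support. Cd93, a receptor in vessel growth, read 377, 631 and 857 on the E13.5 arrays, against 62.1, 106 and 221 on the E8.5 arrays (log2 2.21 ± 0.59, adjusted p = 0.0247). Nrp1, a VEGF and semaphorin co-receptor that neurons use too, also rose there (log2 2.03 ± 0.40, adjusted p = 0.00487). Procr, the endothelial protein C receptor, read 774 and 625 on P90 replicates 2 and 3, with replicate 1 empty, against 14.3, 7.56 and 9.08 on the E8.5 arrays (log2 4.77 ± 0.40, adjusted p = 2.06e-05). Procr was above E13.5 as well (log2 3.35 ± 0.40, adjusted p = 0.000574), while all its E8.5 arrays were under the filter signal, so that its difference from E8.5 followed from the filter. The apelin receptor Aplnr, a gene of growing veins and of mesoderm, ran the other way. It read 283, 44.1 and 84.5 on the P90 arrays, against 877, 699 and 1142 on the E8.5 arrays (log2 -2.89 ± 0.53, adjusted p = 0.00229), and 1851, 1884 and 2229 on the E13.5 arrays (P90 against E13.5, log2 -4.04 ± 0.53, adjusted p = 0.000665).

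Of 19 tested transcription factors of endothelium, 1 rose and 0 fell at E13.5 against E8.5, and 1 rose and 2 fell in each of the comparisons with P90, with medians of 0.39, 0.21 and -0.10. Klf4, a factor that responds to blood flow among other cues, rose at E13.5 against E8.5 (log2 1.58 ± 0.47, adjusted p = 0.0406). Gata2, used by endothelium, blood progenitors and sympathoadrenal cells, read 2865 and 2496 on P90 replicates 2 and 3, with replicate 1 empty, against 32.8, 44.8 and 48.5 on the E8.5 arrays (log2 5.55 ± 0.34, adjusted p = 4.15e-06). At P90 against E13.5 Gata2 changed by 5.06 ± 0.34 (adjusted p = 4.59e-05). Foxc2, a factor of mesenchyme and lymphatic vessels, fell at P90 against E8.5 (log2 -2.10 ± 0.35, adjusted p = 0.00139), and Sox17, a factor of arteries, fell at P90 against E13.5 (log2 -1.86 ± 0.52, adjusted p = 0.0453). Of 8 tested genes of the Notch pathway that sets artery and vein apart, none was called at E13.5 against E8.5. Jag1 fell at P90 against E8.5 (log2 -1.59 ± 0.41, adjusted p = 0.0166) and Efnb2 at P90 against E13.5 (log2 -2.15 ± 0.57, adjusted p = 0.0341), each the only call, and the arterial connexin Gja5 was under the filter signal on every array.

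Some markers of other cells that a capture of a vessel would hold were called, and most were not. Of 11 pericyte and smooth muscle markers, 3 rose and 0 fell at E13.5 against E8.5, 4 rose and 1 fell at P90 against E8.5, and 1 rose and 1 fell at P90 against E13.5. Rgs5, a marker of pericytes, read 921, 359 and 683 on the E13.5 arrays, against 11.4, 14.2 and 14.7 on the E8.5 arrays (log2 4.41 ± 0.41, adjusted p = 7.97e-05). It read 1125, 858 and 529 at P90 (log2 4.80 ± 0.41 against E8.5, adjusted p = 1.31e-05). All E8.5 arrays of Rgs5, Abcc9 and Kcnj8 were under the filter signal, so these genes had to differ from E8.5 to be tested. They are all of the rises at E13.5 against E8.5 and are among those at P90 against E8.5. Their part of these counts is not support. Abcc9, a potassium channel subunit of pericytes, rose at each step (log2 2.25 ± 0.33 at E13.5 against E8.5 and 1.71 ± 0.33 at P90 against E13.5, adjusted p = 0.000897 and 0.00695). Cspg4 fell at P90 against E13.5 (log2 -1.01 ± 0.28, adjusted p = 0.0440). The summed signal of the 11 genes of the list with no empty value was 2785 to 3462 at E8.5, 2887 to 5860 at E13.5 and 2534 to 6212 at P90, so the sums overlapped, and the smooth muscle gene Cnn1 was under the filter signal on all arrays.

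Of 10 tested leukocyte and macrophage markers, 1 rose and 0 fell at E13.5 against E8.5. At P90 against E8.5, 6 rose and 0 fell, and at P90 against E13.5, 2 rose and 0 fell. The medians were 0.46, 1.39 and 1.08. C1qc, the only rise at E13.5, and Fcgr3 had every E8.5 array under the filter signal, so both had to differ from E8.5. Both are among the rises at P90 against E8.5, and their part of the counts against E8.5 is not support. C1qb, a complement gene of macrophages, read 1243, 759 and 305 on the P90 arrays, against 37.7, 22.8 and 39.7 on the E8.5 arrays (log2 3.8 ± 0.46, adjusted p = 0.000142). The 8 genes of the list with no empty value summed to 1503 to 2113 at E8.5, 2693 to 2917 at E13.5 and 3319 to 8180 at P90, with the highest sum on P90 replicate 1. The 8 mesenchyme markers with no empty value summed to 2748 to 4091 at E8.5, 4951 to 16186 at E13.5 and 1196 to 4806 at P90. Of 9 tested, 3 rose and 1 fell at E13.5 against E8.5, led by the matrix gene Dcn (log2 5.31 ± 0.75), 1 rose and 3 fell at P90 against E8.5, and 0 rose and 4 fell at P90 against E13.5, led by Fn1 (log2 -3.22 ± 0.63). Of 6 tested red cell markers, 2 rose and 1 fell, 1 rose and 2 fell, and 0 rose and 2 fell in the 3 comparisons. The embryonic globin Hbb-y read 1800.3, 3327 and 5537 on the E8.5 arrays, 7668 and 7758 on E13.5 replicates 2 and 3 with replicate 1 empty, and 2.59, 4.55 and 35.5 on the P90 arrays (P90 against E8.5, log2 -6.90 ± 0.52). The 5 red cell markers with no empty value, which leave out Hbb-y, summed to 562 to 3649 at E8.5, 285 to 791 at E13.5 and 69.4 to 96.2 at P90. Of 5 tested adrenal cortex markers, 1 rose at E13.5 against E8.5 (Nr5a1, log2 2.0 ± 0.32), 2 at P90 against E8.5 (Scarb1, 3.18 ± 0.45, and Nr5a1, 2.88 ± 0.36) and 1 at P90 against E13.5 (Scarb1, 3.97 ± 0.45), with 18 empty values in the list. The steroid enzymes Cyp11a1 (log2 0.18 at P90 against E8.5) and Cyp11b2 (0.26), and Mc2r (0.59), were called in no comparison. Hsd3b1 and Nr0b1 were under the filter signal on all arrays. The part of these cells in the members' changes was not tested.

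**Figure D5:**
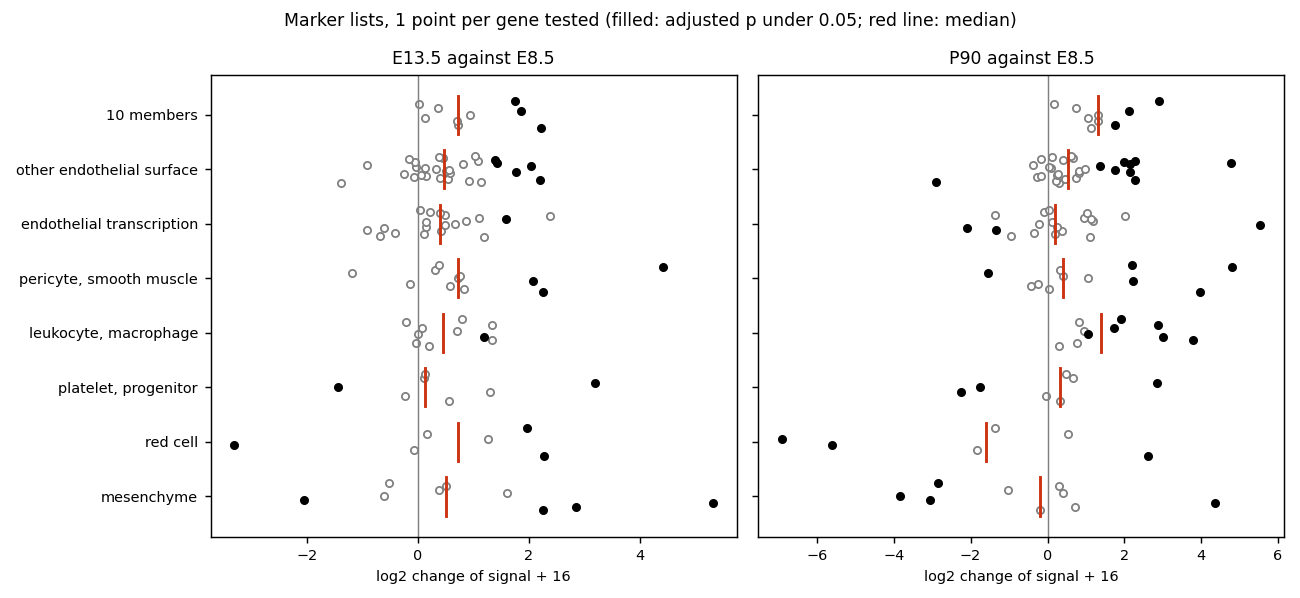
Log2 change of signal + 16 of every tested gene of 8 lists at E13.5 against E8.5 (left) and P90 against E8.5 (right); filled points have an adjusted p under 0.05 and the red line is the median of the list. The members' medians are 0.71 and 1.30, and single genes of each list reach well beyond them.

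Outside these lists, the 8 named genes whose log2 signals were most like the mean standardised profile of the members over the 9 arrays were Rcan3, Acadl, Nfkbia, Trp53inp2, Ubl3, Rmc1, Mpp1 and Smarca2 (Pearson r from 0.98 to 0.96). Rcan3, an inhibitor of calcineurin, read 114, 141 and 212 on the E8.5 arrays, 372, 250 and 281 on the E13.5 arrays and 440, 307 and 272 on the P90 arrays. Nfkbia, which holds NF-kappa-B in the cytoplasm, read 1231, 1625 and 1791 at E8.5, 3327, 1944 and 2992 at E13.5 and 6414, 3686 and 3208 at P90. Both followed the members' mean profile, though not every member, in having E8.5 replicate 1 as the lowest array and P90 replicate 1 as the highest. Of the 8, 1 rose at E13.5 against E8.5 (Trp53inp2, an autophagy regulator, log2 2.41 ± 0.66, adjusted p = 0.0288) and 6 at P90 against E8.5. Acadl, an enzyme of fatty acid oxidation, was among these (log2 2.16 ± 0.62, adjusted p = 0.0251), as was Smarca2, a chromatin remodelling ATPase (log2 2.14 ± 0.51, adjusted p = 0.0106). The 8 genes were chosen on the same 9 arrays for following a profile that is itself higher at P90 than at E8.5, so these counts repeat the choice. Likeness over 9 arrays is a description and says nothing of shared control.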

How the data were processed

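The 9 arrays were grouped by their titles into E8.5, E13.5 and P90, 3 each. The deposited table holds 1 linear intensity per probe set and array with a floor of 1. The submitters' processing notes name MAS5, GCOS, RMA and GCRMA, and which of them made the authors' intensity values, and how these were scaled, is not given in the sources used here. Why 8048 of its 405909 cells (1.98%) are empty is not given either. The table's 45101 probe sets comprise 64 controls, 34945 with a single gene symbol, 932 with several and 9160 with none; the RefSeq gene table matched 34741 of those with a single symbol and left every symbol as it was.

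The fits took log2(signal + 16) as input, with no further scaling. Probe sets above a signal of 26.1 on at least 3 arrays, with at least 2 values per stage, were kept (24012), and the brightest of a gene represented it (13747 genes). Stages were compared in 1 fit with limma 3.58.1 in R 4.3.3 (lmFit, eBayes with a variance trend, 6 residual degrees of freedom, two-sided, Benjamini-Hochberg), checked on simulated data. Few arrays limit the precision, and p-values measure the spread between arrays, whose independence beyond the labels' word is not known.

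The members and gene lists were chosen with earlier results of these data known, so no p is given over a list. From each other list at most the 2 called genes of largest change per comparison are named. Some genes under the filter signal at a stage or on all arrays, and the uncalled adrenal cortex genes, are named in addition. These were chosen after their values were seen. Alternatives covered scaling, pseudocount, filter, variance model, probe set choice, empty cells, arrays in the fit, a replicate block and the Actb difference. Same-numbered arrays of different stages had deviations correlating at -0.37 to 0.39, and differently numbered ones at -0.38 to 0.43. The titles do not say that the numbers pair arrays, and correlations over 3 arrays a stage cannot settle it. The main fit therefore used no block.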

Additional observations from a re-analysis of the deposited data

How the results depend on the processing

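Of 600 log2 changes of members recomputed under other settings, 565 kept their direction and side of the threshold, 10 lost and 8 gained a call, and 17 changed sign, all of them uncalled before and after. In the fit of genes, Robo4 and Vwf kept their calls against E8.5 at both later stages in all 23 settings. Eng kept its call at P90 against E8.5 in all of them. In the fit of probe sets, Vwf lost its call at E13.5 against E8.5 with a pseudocount of 64. With the replicate block the gene counts were 3 at E13.5 against E8.5, 3 at P90 against E8.5 and 1 at P90 against E13.5, as without it, and the count of probe sets at P90 against E13.5 was 0.

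For P90 against E13.5, the count of members called (1 gene, 1 probe set) was 0 in a fit of the P90 and E13.5 arrays alone and 0 when each stage lost its array of largest Actb difference, for genes and probe sets alike. For probe sets it was 2 with quantile normalization and 2 with the Actb difference as a covariate. Leaving out each array in turn gave 0 to 1 genes and 0 to 1 probe sets there, and 1 to 3 probe sets at E13.5 against E8.5. Without the arrays of largest Actb difference, Cdh5 at E13.5 against E8.5 had a log2 change of 1.86 (adjusted p = 0.0657) and Eng at P90 against E13.5 one of 0.91 (adjusted p = 0.179). There Eng is represented by its other probe set, 1432176_a_at, and 1417271_a_at gave 1.16 (adjusted p = 0.0741 in the fit of probe sets). In the fit of genes, Eng at E13.5 against E8.5 passed only with the mean of its probe sets (adjusted p = 0.0430). In the fit of probe sets, 1432176_a_at passed there with the Actb difference as a covariate (log2 0.81, adjusted p = 0.0349).

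The sign changed for Tie1 at E13.5 against E8.5 with quantile normalization (-0.039), with equal array medians (-0.051) and with a pseudocount of 64 (-0.0052), and it ranged from -0.16 to 0.36 over arrays left out. Without the arrays of largest Actb difference, Tie1 was -0.024 at P90 against E8.5 and -0.032 at P90 against E13.5, and Flt1 was -0.18 at E13.5 against E8.5. With arrays left out in turn, the ranges were -0.0017 to 0.30 for Tie1 and -0.97 to 1.23 for Kdr at P90 against E13.5, -0.027 to 2.13 for Kdr at P90 against E8.5, -0.056 to 0.42 for Robo4 at P90 against E13.5 and -0.093 to 0.45 for Flt1 at E13.5 against E8.5. Kdr at P90 against E13.5 was -0.023 with the Actb covariate. The cause of these changes was not tested. Over all genes, the number called was 1273 to 3239 at E13.5 against E8.5 (2267 as reported), 1895 to 4444 at P90 against E8.5 (3209) and 583 to 2013 at P90 against E13.5 (1303). With equal array medians the median log2 change of all genes was -0.09, -0.16 and -0.11 in these comparisons, and Robo4, for one, changed by 1.97 at P90 against E8.5 in place of 2.12. Signals near 26.1 leave Pecam1, Tie1 and Tek close to the limit of measurement.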
